A study of Homo sapiens with 2 samples.

Results

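Shared peaks at bidirectional coding promoters are the stretches of the genome where a PRMT6 peak overlapped a PARP1 peak at a pair of divergent protein-coding genes. They were selected on measured values, by the overlap of the lists and by position. A PRMT6 peak on chromosomes 1 to 22 or X was taken as a member if it shared at least 1 bp with a PARP1 peak. It also had to lie within 1 kb (1000 bp) of the start of a gene whose neighbour on the opposite strand starts 1 kb or less away, head to head. This rule found 265 members, which is 2.92% of the 9080 PRMT6 peaks and 6.30% of the 4206 shared PRMT6 peaks on these chromosomes. Every position is in the GRCh38 build, with 1 start per gene, the 5′ end of its RefSeq record.

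The data came from MDA-MB-231, a human breast cancer cell line, grown in serum-containing medium with no treatment named in the labels. The 2 libraries were made with an antibody against PRMT6 and an antibody against PARP1, 1 library each, and gave 9080 and 11651 peaks. A peak is an interval with more sequenced fragments than its surroundings, and the lists do not hold the sequencing depth. There was no replicate and no library with a control antibody among the files used, so no test between the antibodies was possible, and bound protein and accessible DNA that any antibody would recover cannot be told apart. Values below describe these libraries, and each interval in brackets after a share is a 95% exact binomial (Clopper-Pearson) interval that covers counting error only.

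In a bidirectional promoter, genes on opposite strands start close together and are transcribed away from each other from a common stretch, usually rich in CpG dinucleotides. Such pairs are known for many genes of DNA repair, mitochondria and the cell cycle. PRMT6 places asymmetric dimethylation on arginine 2 of histone H3, a mark that counteracts methylation of the neighbouring lysine 4 at promoters. PARP1 binds DNA breaks and nucleosomes and attaches chains of ADP-ribose to itself and to other chromatin proteins.

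The promoters of 6 pairs are shown to let the sequence be read beside the peaks. PPME1, SKA2, FBXO24 and ALDH6A1 belong to pairs with the best scores in both lists, and EIF2A and LRRC28 to pairs that scored far better for PRMT6 than for PARP1. Each run has 300 bases of its gene's strand, from 250 bases upstream to 50 from the start onward, taken from RefSeq (GRCh38.p14), and the gene starts at base 251. Capitals mark matches, on either strand, to any of 8 motifs. NF-Y binds CCAAT, the box found in many promoters without a TATA element. SP factors bind the GC box GGGCGG, and factors of the ETS family bind the longer motif CCGGAAG. The nuclear respiratory factor NRF1 binds GCGCATGC, and the zinc finger protein YY1 binds AAGATGG. The cAMP response element is TGACGTCA, the E-box bound by MYC and by clock factors is CACGTG, and the last motif was the TATA box, TATAAA.
PPME1: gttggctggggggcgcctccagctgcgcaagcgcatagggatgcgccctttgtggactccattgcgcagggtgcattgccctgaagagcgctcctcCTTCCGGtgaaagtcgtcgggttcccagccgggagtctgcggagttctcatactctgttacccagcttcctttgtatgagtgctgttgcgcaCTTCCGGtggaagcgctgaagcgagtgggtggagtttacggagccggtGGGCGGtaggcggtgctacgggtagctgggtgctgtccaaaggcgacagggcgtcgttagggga
SKA2: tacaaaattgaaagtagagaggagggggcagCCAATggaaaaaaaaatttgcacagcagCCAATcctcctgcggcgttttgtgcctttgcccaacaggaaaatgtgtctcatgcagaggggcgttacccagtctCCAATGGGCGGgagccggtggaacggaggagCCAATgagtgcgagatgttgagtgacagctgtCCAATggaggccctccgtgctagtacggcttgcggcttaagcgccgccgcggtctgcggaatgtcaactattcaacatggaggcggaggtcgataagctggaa
FBXO24: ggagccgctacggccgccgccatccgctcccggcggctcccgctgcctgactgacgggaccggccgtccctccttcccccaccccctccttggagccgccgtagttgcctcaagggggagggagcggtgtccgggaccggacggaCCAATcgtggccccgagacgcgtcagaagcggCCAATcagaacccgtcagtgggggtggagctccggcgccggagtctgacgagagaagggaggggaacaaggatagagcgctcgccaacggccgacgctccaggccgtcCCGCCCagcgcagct
ALDH6A1: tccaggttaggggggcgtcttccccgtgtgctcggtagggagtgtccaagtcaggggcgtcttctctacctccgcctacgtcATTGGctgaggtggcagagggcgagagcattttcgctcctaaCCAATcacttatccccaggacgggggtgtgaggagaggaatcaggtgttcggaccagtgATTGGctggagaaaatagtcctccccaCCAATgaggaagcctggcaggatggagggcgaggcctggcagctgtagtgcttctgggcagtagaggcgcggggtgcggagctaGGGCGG
EIF2A: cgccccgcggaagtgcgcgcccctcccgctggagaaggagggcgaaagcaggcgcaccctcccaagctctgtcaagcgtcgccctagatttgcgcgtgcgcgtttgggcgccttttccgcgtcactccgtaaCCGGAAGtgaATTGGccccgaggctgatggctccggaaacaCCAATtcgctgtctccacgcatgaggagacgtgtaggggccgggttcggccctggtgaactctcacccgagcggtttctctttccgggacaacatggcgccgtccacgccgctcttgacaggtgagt
LRRC28: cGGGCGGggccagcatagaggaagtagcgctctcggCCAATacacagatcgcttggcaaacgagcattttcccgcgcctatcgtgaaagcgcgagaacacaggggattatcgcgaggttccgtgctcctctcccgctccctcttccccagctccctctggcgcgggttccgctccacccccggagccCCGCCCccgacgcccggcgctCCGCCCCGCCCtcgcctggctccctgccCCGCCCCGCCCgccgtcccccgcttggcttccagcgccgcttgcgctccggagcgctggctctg
The windows of PPME1 (chr11:74171039-74171338, plus strand), SKA2 (chr17:59155137-59155436, minus strand) and ALDH6A1 (chr14:74084404-74084703, minus strand) lay wholly inside the peaks of both lists. Those of FBXO24 (chr7:100586078-100586377, plus strand), EIF2A (chr3:150546537-150546836, plus strand) and LRRC28 (chr15:99251231-99251530, plus strand) lay partly inside them. In the FBXO24 window the divergent partner LRCH4 starts at base 52, and the partners of the others start outside the windows. CCAAT was found 5 times at SKA2, 4 times at ALDH6A1, 2 times at FBXO24 and at EIF2A, 1 time at LRRC28 and 0 times at PPME1. PPME1 carried 2 ETS motifs and 1 GGGCGG, and LRRC28 carried 6 GGGCGG, with overlapping matches counted each. A match is a description of the letters and not a binding site.

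Head-to-head pairs were the starting point. The 19674 protein-coding genes with a known strand formed 1016 such pairs from 2003 genes, and the median distance between the starts was 175 bp (quartiles 99 and 295). Members lay within 1 kb of a start of 267 pairs (26.3%, 23.6% to 29.1%). In 266 of these pairs both genes started within 1 kb of a shared peak, since the starts are close. A further 77 pairs had a PRMT6 peak alone, 173 a PARP1 peak alone, 13 peaks of both lists that did not overlap, and 486 (47.8%) no peak. Each member was assigned to the pair whose midpoint was nearest to its centre, which gave 260 pairs, of which 5 held 2 members each (ACTR1A/SUFU, CBX5/HNRNPA1, CDCA3/USP5, NAIF1/SLC25A25 and PPP1R10/MRPS18B, named after their values were seen).

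Of all protein-coding genes, 11.8% had a shared peak within 1 kb of the start. The share was 26.3% (24.3% to 28.2%, 526 of 2003) for genes in head-to-head pairs and 10.2% (9.71% to 10.6%, 1794 of 17671) for genes outside them, a ratio of 2.59 (2.37 to 2.82). Partners in a pair mostly share their peak, so genes in pairs are not independent and these intervals are too narrow. The ratio was 2.59 (2.31 to 2.90) when 1 point per pair, the midpoint, was compared with the start of a gene outside pairs. It was 1.93 when genes outside pairs were weighted to the CpG content of genes in pairs. Each list alone showed the same order. A PRMT6 peak was found at 35.0% of the genes in pairs and 14.3% of the others, and a PARP1 peak at 44.3% and 17.3%.

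In the whole PRMT6 list on these chromosomes, 46.4% of the peaks overlapped a PARP1 peak. At bidirectional promoters it was 265 of 355 peaks (74.6%, 69.8% to 79.1%), at promoters of genes outside pairs 1676 of 2382 (70.4%, 68.5% to 72.2%), and away from starts 2265 of 6337 (35.7%, 34.6% to 36.9%). The intervals of both promoter classes overlapped. Seen from the PARP1 list, 271 of 459 peaks at bidirectional promoters (59.0%, 54.4% to 63.6%) and 1686 of 2973 at single promoters (56.7%, 54.9% to 58.5%) overlapped a PRMT6 peak. The 90 PRMT6 peaks at bidirectional promoters without PARP1 overlap had a median score percentile of 59.8 in their list (quartiles 32.1 and 76.2), and 40 of them had the smallest width that the list contains, 288 bp (44.4%, against 53.1% of all PRMT6 peaks). A PARP1 peak lay within 1 kb of 15 of the 90.

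Shared peaks were unevenly spread over the pairs by the distance between the starts. Of 260 pairs with starts 1 to 100 bp apart, 24 had a shared peak (9.23%, 6.00% to 13.4%). The share was 19.4% (15.2% to 24.3%, 60 of 309) at 101 to 200 bp and 37.2% (30.5% to 44.3%, 74 of 199) at 201 to 300 bp. It was 46.0% (38.2% to 54.0%, 75 of 163) at 301 to 500 bp and 40.0% (29.5% to 51.2%, 34 of 85) at 501 to 1000 bp. The intervals of the 3 closest classes did not overlap each other, while those of the 3 widest classes did. The median distance between the starts was 260 bp (quartiles 178 and 370) for pairs with a shared peak and 128.5 bp (80 and 229) for pairs with no peak.

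**Figure D1:**
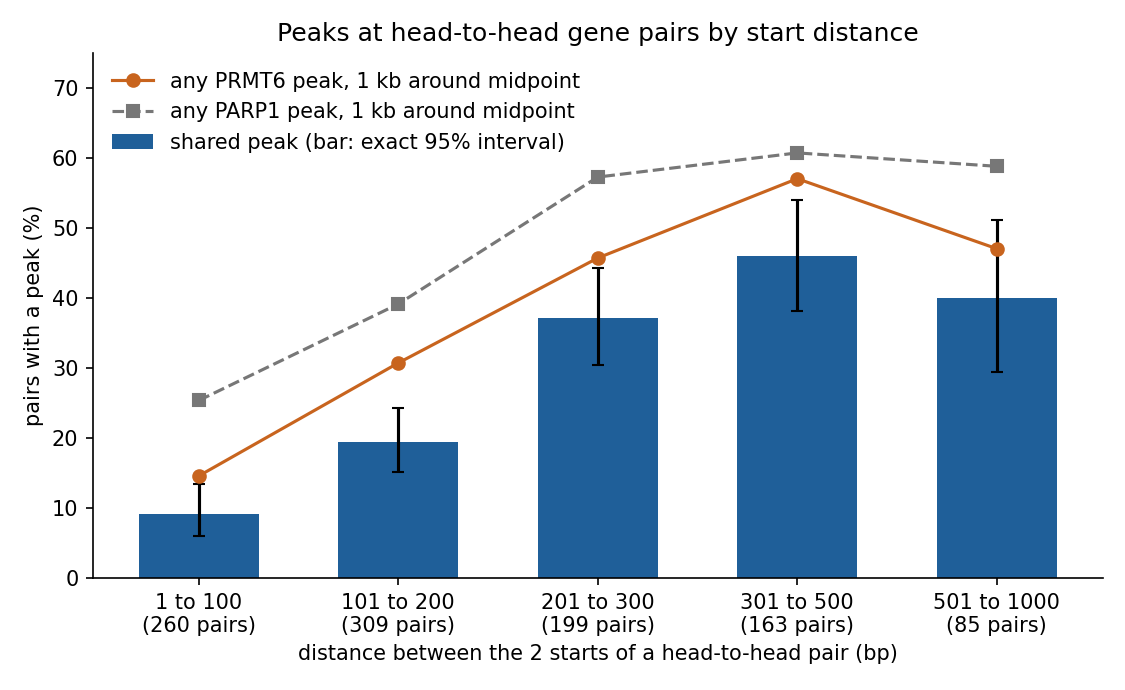
Share of head-to-head pairs with a peak (y axis, percent) by the distance between their starts (x axis, bp). Bars give pairs with a shared peak, with exact 95% intervals, and the lines give pairs with any PRMT6 or any PARP1 peak within 1 kb of the midpoint; the bars rise from 9.23% for the closest pairs to 46.0% at 301 to 500 bp.

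The same order of the closest and the 301 to 500 bp pairs was seen in each list and in both CpG classes. Any PRMT6 peak was found within 1 kb of the midpoint in 14.6% of the closest pairs and 57.1% of those 301 to 500 bp apart, and any PARP1 peak in 25.4% and 60.7%. In pairs at or above the median CpG content, 11 of 116 of the closest (9.48%) and 39 of 81 of those 301 to 500 bp apart (48.1%) had a shared peak. Below the median these were 12 of 134 (8.96%) and 35 of 79 (44.3%). The median CpG content itself, as observed over expected CpG, ran only from 0.713 to 0.768 over the 5 distance classes. With all pairs over 300 bp apart set against those up to 100 bp apart, the counts were 109 of 248 and 24 of 260, a ratio of 4.76 (3.17 to 7.15). Among the 680 pairs in which RefSeq promoters begin at the record start of both genes, that ratio was 5.78 (3.34 to 10.0).

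The position of members between the starts is partly fixed by the rule, which kept them within 1 kb of a start, but not within that window. The centre of the PRMT6 peak lay between the starts in 181 of 265 members (68.3%, 62.3% to 73.9%) and within 100 bp of that stretch in 224 (84.5%, 79.6% to 88.7%). For the PARP1 peak these numbers were 183 and 229. The median distance from the centre to the midpoint of the pair was 82.5 bp for PRMT6 (quartiles 34 and 159) and 73 bp for PARP1 (32 and 153). Coverage was highest beside the midpoint, where 83.4% of the PRMT6 peaks covered the position at -10 bp and 82.3% of the PARP1 peaks that at 10 bp. At the 1676 shared peaks of single promoters the corresponding top was 75.7% at -130 bp and 73.0% at -110 bp, upstream of the start, and 75.4% of the centres lay upstream.

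**Figure D2:**
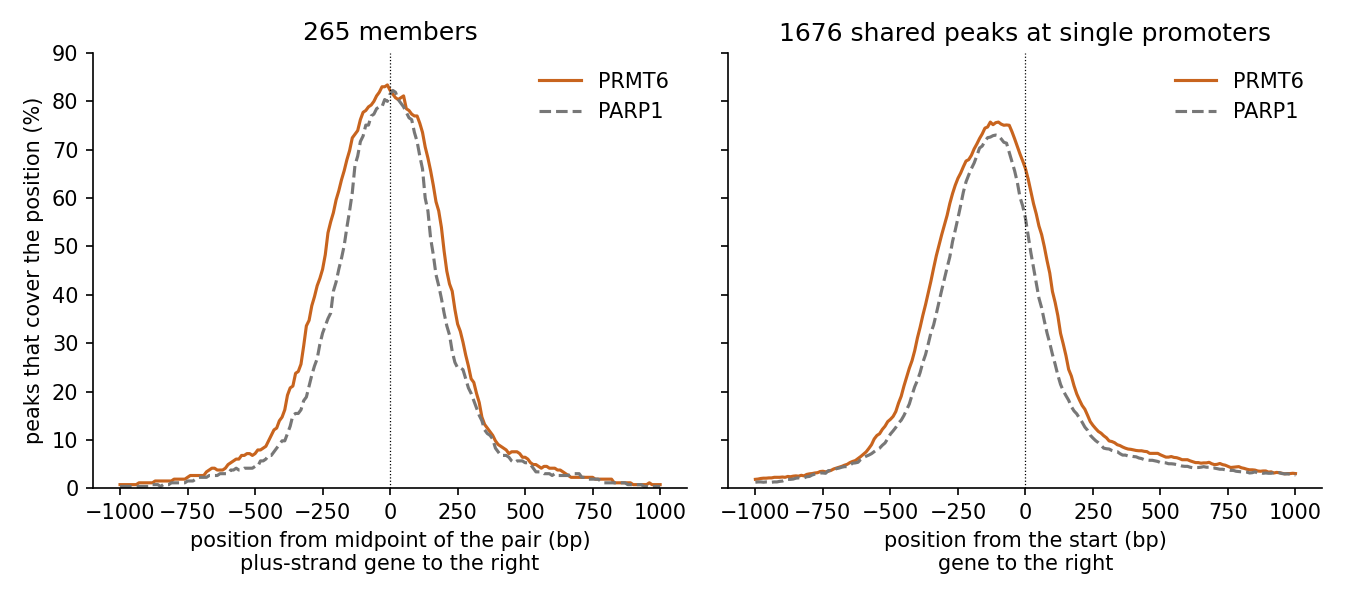
Share of peaks that cover each position (y axis, percent) against distance in bp (x axis), from the midpoint of the pair for the 265 members (left) and from the start of the gene for 1676 shared peaks at single promoters (right). Solid lines are PRMT6 and dashed lines PARP1; members are covered most within 10 bp of the midpoint, single promoters on a point 110 to 130 bp upstream of the start.

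The place of the centre was also described by the distance between the starts. In close pairs the stretch between the starts is shorter than most peaks, so fewer centres can fall into it by construction. In the 23 members of pairs up to 100 bp apart, the PRMT6 centre lay a median of 197.5 bp from the midpoint, with 22 of the 23 centres inside a gene. In the 59 members at 101 to 200 bp the median was 112.5 bp, in the 72 at 201 to 300 bp it was 67.75 bp, and in the 74 at 301 to 500 bp it was 49 bp with 6 centres inside a gene. In the 37 members at 501 to 1000 bp the median was 185 bp. Among the 111 members of pairs more than 300 bp apart, the centre was nearer to the midpoint than to either start in 72 (64.9%, 55.2% to 73.7%). No share expected from the spacing of the starts was computed, so this value does not show centring on the pair by itself. PRMT6 and PARP1 centres lay on the same side of the midpoint in 22 of the 23 members of the closest pairs and in 54 of the 74 members at 301 to 500 bp. The rule required the peaks to overlap, so centres far from the midpoint mostly share a side by construction.

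Most members spanned at least 1 start. The PRMT6 peak covered both starts in 138 members (52.1%, 45.9% to 58.2%), 1 start in 101 and none in 26. The PARP1 peak covered both in 101 (38.1%, 32.2% to 44.3%), 1 in 112 and none in 52, and in 73 members the peaks of both lists covered both starts. PRMT6 peaks were the wider ones, with a median of 453 bp (quartiles 330 and 555) against 373 bp (274 and 466), and the smallest width in each list differs, 288 bp and 200 bp. The overlap had a median length of 303 bp, 69.7% of the PRMT6 peak, and the centres were a median of 55.5 bp apart, with 196 members (74.0%, 68.2% to 79.1%) at 100 bp or less. At single promoters 75.3% (73.2% to 77.3%) of the shared peaks had centres this close.

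The peak caller's score ranked the members within each list. The lists carry no header, and the score was read as the −log10 of a p-value, which would grow with depth, so a percentile is used here, where 100 is the best peak of that list. Members had a median percentile of 82.2 for PRMT6 (quartiles 64.6 and 92.3) and 74.9 for PARP1 (58.1 and 90.1). The shared peaks of single promoters had medians of 78.5 and 76.1. Against 9.98% of the whole PRMT6 list, 78 members (29.4%, 24.0% to 35.3%) were above percentile 90, and against 10% of the PARP1 list 68 (25.7%, 20.5% to 31.4%) were. Shared peaks of single promoters had 26.6% and 24.6% there, within those intervals. Above percentile 90 in both lists were 39 members, and 23 were below percentile 50 in both. Across members the percentiles had a Spearman correlation of 0.60 and a Pearson correlation of 0.51 (265 peaks that share their 2 libraries, a description only). The percentile was higher in PRMT6 for 161 members (60.8%, 54.6% to 66.7%) and for 54.8% (52.4% to 57.2%) of the shared peaks at single promoters.

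**Figure D3:**
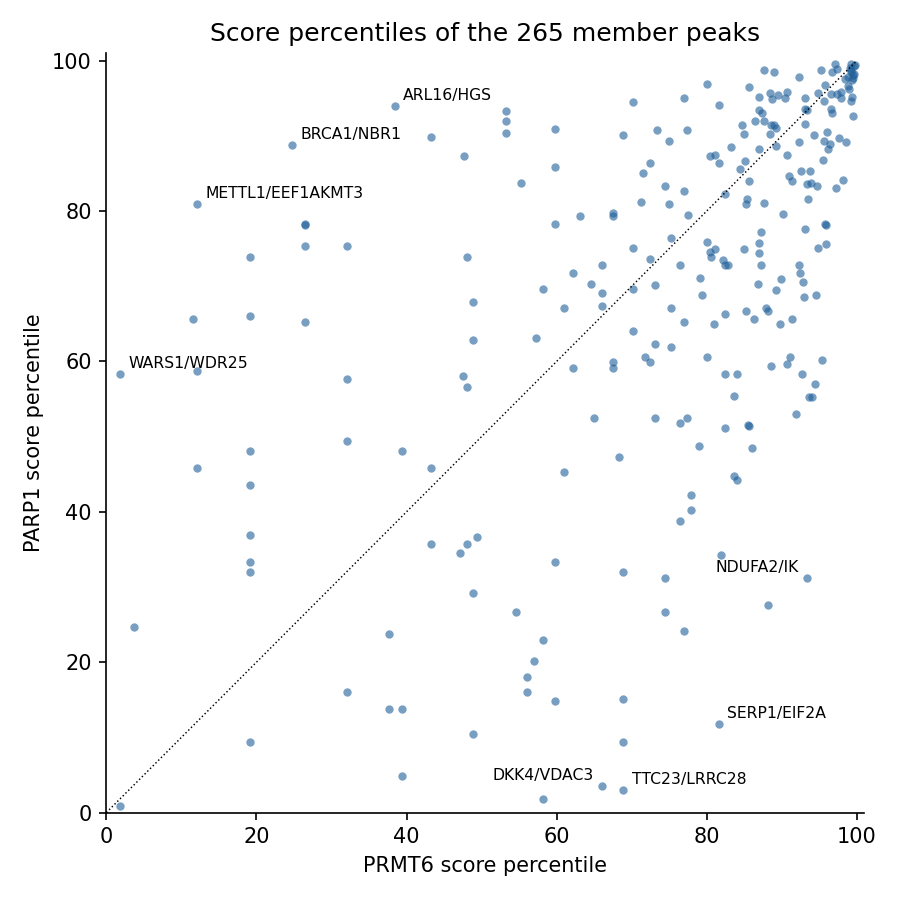
Score percentile of each of the 265 members in the PRMT6 list (x axis) and of its PARP1 peak in the PARP1 list (y axis), where 100 is the best peak of a list and the dotted line marks equal percentiles. Above percentile 90 in both lists lie 39 members, and the 8 named pairs differ most between the lists.

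The 12 pairs with the best mean percentile held genes of signaling, the cytoskeleton, cell division and metabolism. First was RRAS/SCAF1 on chromosome 19, where RRAS is a small GTPase of the Ras family and SCAF1 binds RNA polymerase II. Its PRMT6 peak (49640060 to 49640953) scored 31.2 and ranked 27, and its PARP1 peak (49640136 to 49640851) scored 29.5 and ranked 63. Both spanned the record starts of both genes. The nearest RefSeq promoter of SCAF1 lies 1744 bp from its record start, and none was available for RRAS. C2CD3/PPME1 on chromosome 11, a centriole protein and the methylesterase of phosphatase PP2A, scored 29.0 and 26.0 (ranks 35 and 91). SKA2/PRR11 on chromosome 17, where SKA2 ties kinetochores to spindle microtubules, scored 24.6 and 30.5 (ranks 77 and 57). SKA2 and PPME1 are the promoters printed above with 5 and 0 CCAAT.

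LRCH4/FBXO24 followed with scores of 23.3 and 24.2, where FBXO24 is an F-box protein of ubiquitin ligases. KCTD9/CDCA2 scored 25.5 and 22.8, and CDCA2 brings phosphatase PP1 to chromatin in mitosis. ALDH6A1/LIN52 ranked 73 and 171, and pairs an enzyme of valine breakdown with a subunit of the MuvB complex, which represses and activates cell cycle genes. All of these were in the top 2% of both lists.

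TBC1D10B/MYL11 scored 28.0 and 20.8, with a Rab GTPase-activating protein and a myosin light chain of muscle. AGPAT1/RNF5 scored 27.8 and 20.8, with an enzyme that makes phosphatidic acid and a ubiquitin ligase of the endoplasmic reticulum. TMEM143/SYNGR4 scored 27.7 and 19.9, with a membrane protein and a member of the synaptogyrin family. RHOA/TCTA scored 25.7 and 19.1, and RHOA is the GTPase that drives actin stress fibres. TLN1/CREB3 scored 22.1 and 20.0, with talin, which links integrins to actin, and a transcription factor anchored in the endoplasmic reticulum. TOM1L2/DRC3 scored 16.4 and 29.7, with an endosomal adaptor and a dynein regulator of motile cilia. The percentiles of the lists differed by under 2 points in 11 of these 12 pairs, and in TOM1L2/DRC3 they were 97.0 for PRMT6 and 99.5 for PARP1.

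A few members stood high in 1 list and low in the other. SERP1/EIF2A, a protein of the secretory translocon and a translation initiation factor, was at percentile 81.6 for PRMT6 (score 8.42) and 11.8 for PARP1 (score 4.42). TTC23/LRRC28 was at 68.9 and 2.98, and DKK4/VDAC3, an inhibitor of Wnt signaling and a channel of the outer mitochondrial membrane, at 66.1 and 3.50. NDUFA2/IK, a subunit of respiratory complex I and a splicing factor, was at 93.3 and 31.2. In SERP1/EIF2A and NDUFA2/IK the peaks of both lists still spanned both starts.

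In the other direction, METTL1/EEF1AKMT3, which encode methyltransferases of tRNA and of elongation factor eEF1A, ranked 7963 for PRMT6 (score 4.19) and 2210 for PARP1 (score 9.75). BRCA1/NBR1, a DNA repair factor and an autophagy receptor, was at 24.7 and 88.8. Its PRMT6 peak lay 495 bp from the nearer of the starts, inside NBR1, and only the outermost start of the BRCA1 record was used. WARS1/WDR25, with the tryptophanyl-tRNA synthetase, was at 1.88 and 58.3. ARL16/HGS, with a small GTPase and an endosomal sorting protein, was at 38.4 and 94.0. No replicate shows how stable these percentiles are.

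The lowest mean percentiles belonged to NSUN2/SRD5A1 (1.88 for PRMT6 and 0.845 for PARP1), an RNA cytosine methyltransferase and a steroid reductase, to DYNLT1/SYTL3 (3.74 and 24.7) and to NSL1/TATDN3 (19.2 and 9.36). Among the 260 pairs to which members were assigned, BBIP1/SHOC2 had the closest starts, 4 bp apart, and scored 11.9 and 20.1. BBIP1 is a subunit of the ciliary BBSome and SHOC2 a scaffold of Ras signaling. TMEM205/CCDC159 came next among these with 27 bp. The farthest were SMIM7/TMEM38A with 995 bp and APBA3/MRPL54 with 990 bp. In these last pairs each PRMT6 peak covered 1 start, that of SMIM7 and that of MRPL54.

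The thresholds of the rule lay near few peaks. The farthest members from a start were 807 bp (near ISCU) and 612 bp (near GPBP1L1) away, and the nearest shared peaks left out were 1023 bp (TSPAN4) and 1095 bp (IER2) away. The smallest overlaps were 42 bp (SARS2/MRPS12) and 49 bp (ORMDL1/PMS1), and the PRMT6 peaks left out closest to a PARP1 peak were 23 bp (C19orf73) and 61 bp (MYO19) from it. The first pairs beyond 1 kb were PRADC1/CCT7 with starts 1024 bp apart and TXNDC9/EIF5B with 1056 bp.

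By function, shared peaks were found in most gene groups that contain head-to-head pairs. The share of each list is read against the 26.3% of all genes in pairs, and no list was tested. Both partners of a pair can be on a list, as HSPD1 and HSPE1 are, so the intervals of the lists can be too narrow. Of 35 DNA repair genes in pairs 12 had a member (34.3%, 19.1% to 52.2%), and of 22 genes of replication and the cell cycle 8 did (36.4%, 17.2% to 59.3%). The best of them was NPAT/ATM, which pairs the coactivator of histone genes with the kinase that answers double-strand breaks, at percentile 96.6 for PRMT6 and 98.4 for PARP1. XRCC3, which acts in homologous recombination, was at 96.0 and 90.5. PCNA, the sliding clamp of DNA polymerases, was at 84.9 and 90.2, ORC6 of the origin recognition complex at 81.1 and 74.9, and the mitotic kinase AURKA at 82.2 and 73.4.

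Genes of cilia and centrosomes had members at 11 of 21 (52.4%, 29.8% to 74.3%), the only list whose interval lay above the share of all genes in pairs. IFT20, a carrier of ciliary cargo, was highest at percentiles 98.8 and 96.6, followed by CEP170 (92.3 and 89.2), CEP89 (94.7 and 83.4) and CEP290 (77.0 and 82.6), genes of centriole and transition zone proteins. Outside pairs 13 of the 82 genes of this list had a shared peak (15.9%, 8.72% to 25.6%). The share outside pairs was also the lower one in most other lists with 15 or more genes in pairs, with overlapping intervals. For DNA repair it was 28.6% (17.3% to 42.2%) outside and 34.3% in pairs, and for translation 22.9% (15.7% to 31.5%) and 27.6%. The share outside pairs was the higher one for splicing (37.1% outside, 23.8% in pairs), the respiratory chain (16.4% and 10.0%) and proteasome and folding (26.0% and 22.7%). The intervals overlapped in these 3 lists as well. Outside pairs, every list of that size except histones (8.33%) was above the 10.2% of all genes outside pairs. With 11 lists of 15 or more genes in pairs, 1 interval apart from the common share is no sign of a difference by itself.

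Among mitochondrial groups, genes of import, chaperones and maintenance had members at 7 of 15 (46.7%, 21.3% to 73.4%), among them the protease gene LONP1 (93.1 and 91.6), the divergent chaperonin genes HSPD1 and HSPE1 (88.4 and 95.7) and the transcription factor gene TFB2M (87.4 and 93.0). Mitochondrial ribosomal genes had 5 of 23 (21.7%, 7.46% to 43.7%), with MRPS18B highest at 80.4 and 87.3. Genes of the respiratory chain and ATP synthase had the lowest share of these lists, 3 of 30 (10.0%, 2.11% to 26.5%), and these were NDUFAF8, NDUFA2 and ATP5PB. The difference between these mitochondrial lists was not tested, and their intervals overlapped.

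The other lists lay close to the share of all genes in pairs. Translation had 8 of 29 (27.6%), led by the ribosomal gene RPL18 at percentiles 87.6 and 98.8, and chromatin and transcription 7 of 26 (26.9%), led by the helicase gene RUVBL2 at 87.6 and 91.9. Splicing had 5 of 21 (23.8%), led by the Sm core gene SNRPD2 (99.4 and 92.6), SF3B6, SNRPA and HNRNPA2B1. Proteasome and folding had 5 of 22 (22.7%), led by the chaperone gene DNAJB11 at 93.1 and 93.6. Histone genes had 6 of 27 (22.2%), the divergent H2A and H2B genes of 3 pairs, H2BC11/H2AC11, H2BC4/H2AC6 and H2AC17/H2BC17, whose near-identical copies can share reads.

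Core clock genes were of interest to the study. Of 25 listed, 2 were in head-to-head pairs and 1 of these had a member, CSNK1A1, the casein kinase gene paired with ARHGEF37. Its PRMT6 peak was at percentile 53.3 and its PARP1 peak at 92.0, both over both record starts. The nearest RefSeq promoter of ARHGEF37 lies 29873 bp from its record start, so this pair rests on the record start alone. CSNK1A1 was also 1 of 2 paired genes on the list of those the study examined by qChIP. The other, MRE11 with C11orf97, had no peak of either list within 1 kb. By qChIP, a different assay, the study reports enrichment at the promoters of both CSNK1A1 and MRE11. Of the study's tumor suppressors 1 of 8 was in a pair and had a member, TP53BP1 with MAP1A (48.9 and 29.2), and of its oncogenes 0 of 8 were in pairs.

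**Figure D4:**
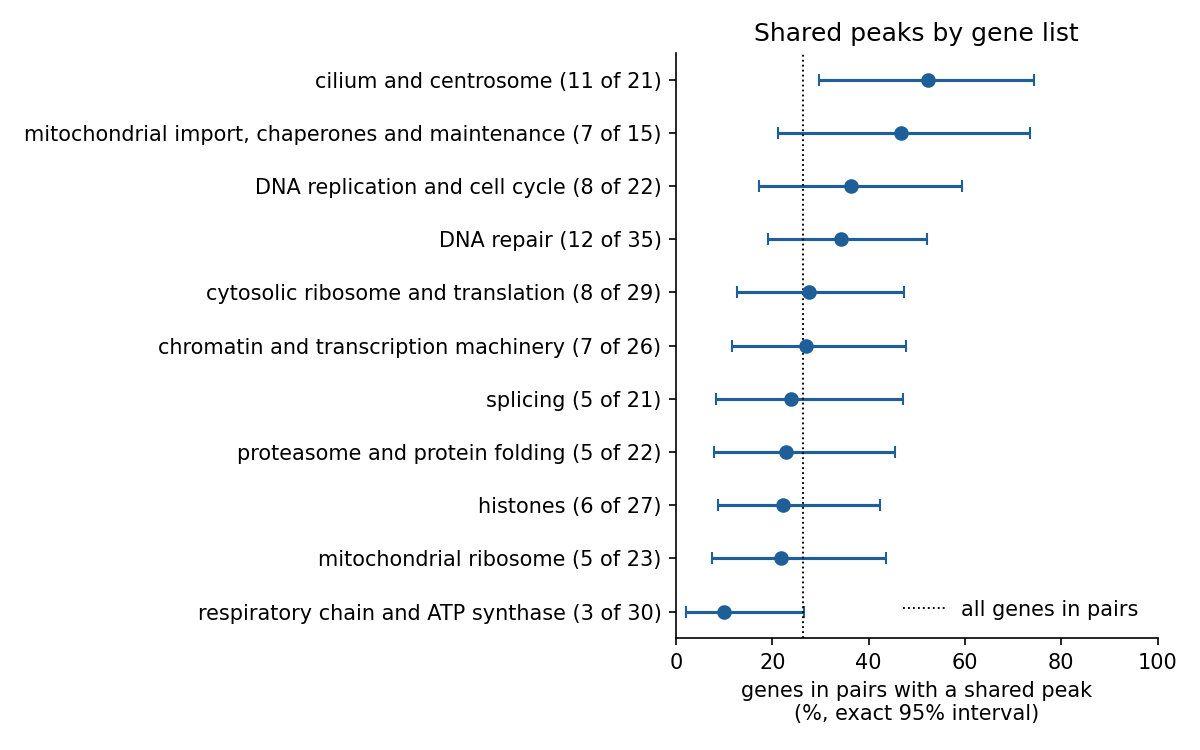
Share of the genes in head-to-head pairs that have a shared peak (x axis, percent, with exact 95% intervals) for each gene list with at least 15 genes in pairs (y axis, with counts). The dotted line is the 26.3% of all genes in pairs, and the interval of cilium and centrosome genes (11 of 21) begins above it. Partners on the same list count as separate genes, so intervals can be too narrow.

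The share of pairs with a shared peak, 26.3% over all chromosomes, was also counted by chromosome. On chromosome 19, 34 of 73 pairs had a shared peak (46.6%, 34.8% to 58.6%), and on chromosome 12 it was 21 of 55 (38.2%, 25.4% to 52.3%). On chromosome 3 it was 10 of 56 (17.9%, 8.91% to 30.4%) and on the X chromosome 4 of 31 (12.9%, 3.63% to 29.8%). Shares below that of chromosome 3 were also found on chromosomes 4, 9, 15, 18 and 20. The interval of chromosome 19 lay above 26.3%, and those of all other chromosomes included it. With this many chromosomes, a single interval apart from the common share is no sign of a difference by itself. The chromosomes given with their values were picked after these were seen.

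Promoters of members resembled other paired promoters in CpG content and differed from them in CCAAT. Observed over expected CpG had a median of 0.770 at genes with members (quartiles 0.680 and 0.853) and 0.757 at genes in pairs with no peak (0.656 and 0.846). It was 0.789 at single genes with a shared peak and 0.691 over all protein-coding genes. RefSeq promoter sequence was available for 448 of the 526 genes with members and for 15813 genes in all. The promoter nearest to the record start was used without a limit on distance. Of the 448, 90.8% were at the record start, and some others lay far from it, as that of ARHGEF37 does (29873 bp). CCAAT, on either strand, was in 57.1% (52.4% to 61.8%) of the promoters with members, 33.4% (30.2% to 36.8%) of those in pairs with no peak, 50.2% (47.6% to 52.7%) of single promoters with a shared peak and 36.4% of all promoters. At least 2 CCAAT were in 31.5% (27.2% to 36.0%), 11.4% (9.32% to 13.8%), 26.8% (24.6% to 29.1%) and 12.5% of these. Partners of a pair were counted separately, and their promoters can overlap and hold the same match. The intervals for genes in pairs are therefore too narrow, here and for the other motifs.

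The other motifs separated members less from paired promoters with no peak. GGGCGG was in 75.9% (71.7% to 79.8%) against 67.1% (63.7% to 70.3%), with 58.3% over all promoters. CCGGAAG was in 112 of 448 (21.1% to 29.3%) against 27.8% (24.7% to 31.0%), and in 18.6% (16.7% to 20.6%) of single promoters with a shared peak and 14.1% of all. GCGCATGC was in 9.15% and 8.48%, against 4.27% of all promoters. AAGATGG was in 7.81% and 9.83% (all 6.36%), CACGTG in 10.5% and 10.9% (all 8.82%), TGACGTCA in 4.02% and 3.69% (all 2.56%) and TATAAA in 3.79% and 5.04% (all 9.75%), each with overlapping intervals between members and paired promoters with no peak.

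Shared peaks were also counted by CCAAT and the distance between the starts together. In the 814 pairs with sequence for both genes, a shared peak was found in 145 of 416 pairs with CCAAT in either promoter (34.9%, 30.3% to 39.7%) and in 64 of 398 without (16.1%, 12.6% to 20.1%), a ratio of 2.17 (1.67 to 2.81). Weighted to the same start distances, the ratio was 1.73. In the closest pairs the shares were 10.8% with and 6.72% without CCAAT, and at 101 to 200 bp they were 26.0% (18.5% to 34.7%) and 14.2% (8.76% to 21.3%). At 201 to 300 bp they were 41.5% and 30.2%, at 301 to 500 bp 56.2% (44.1% to 67.8%) and 21.7% (10.9% to 36.4%), and at 501 to 1000 bp they were 20 of 40 and 7 of 21 pairs. The share was higher with CCAAT in all 5 classes, and the intervals were apart only at 301 to 500 bp. No ratio by distance was computed with CCAAT held. In pairs with CCAAT the share rose at each step up to 301 to 500 bp. In pairs without it the order was uneven, and the intervals of the closest pairs (3.12% to 12.4%) and of those 301 to 500 bp apart overlapped. Outside pairs, 15.5% (14.5% to 16.6%) of genes with CCAAT and 8.57% of those without had a shared peak.

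**Figure D5:**
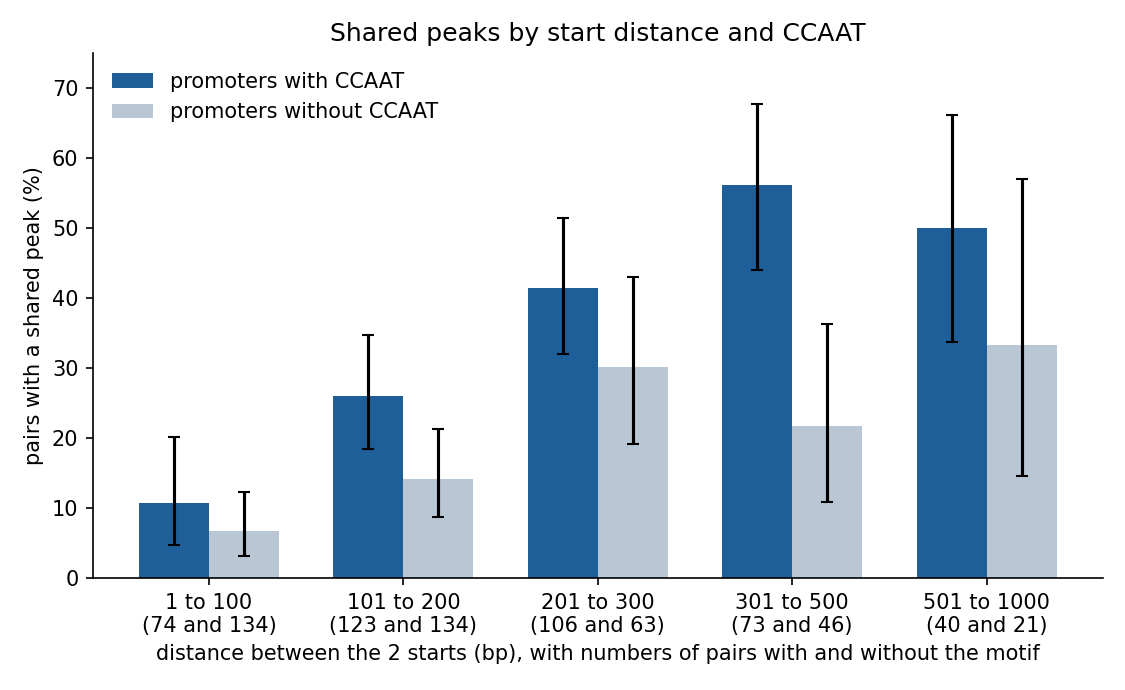
Share of pairs with a shared peak (y axis, percent, with exact 95% intervals) by distance between the starts (x axis, bp) for pairs with CCAAT in either RefSeq promoter (dark) and pairs without (light). The dark bar is higher in each class, and the intervals are apart at 301 to 500 bp, with 56.2% and 21.7%.

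Most CCAAT matches in the promoters of members lay inside the peaks. Across 441 promoters there were 514 matches, counted in each promoter of a pair, with the middle base a median of 106 bp upstream of the start (quartiles 170 and 62 bp upstream). The PRMT6 peak held 432 of them (84.0%, 80.6% to 87.1%) and 71.6% of the promoter bases, and the PARP1 peak held 422 (82.1%, 78.5% to 85.3%) and 66.4% of the bases. Matches in overlapping promoters were counted for each gene, so these intervals are too narrow. Members of pairs with CCAAT had median percentiles of 82.6 for PRMT6 and 76.5 for PARP1 (144 members), and those without had 78.6 and 68.4 (62 members), with broadly overlapping quartiles.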

How the data were processed

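PRMT6 and PARP1 were each profiled in 1 library of MDA-MB-231 cells, and 2 peak lists were used. The authors deposited 1 score per peak with its position, read here as the −log10 p-value of the peak caller, since the lists carry no header. Per the submitters' processing notes, CASAVA 1.4, Bowtie 0.12.8 and MACS/MACS2 were used with hg19. The positions, however, lie within 1 kb of a GRCh38 start for 30.2% (PRMT6) and 29.5% (PARP1) of the peaks, against 4.04% and 3.94% with GRCh37 starts, so GRCh38 was used. Thresholds, duplicate handling and controls are not given in the sources used here. The labels describe both a ligation library and CUT&Tag. Positions are printed as listed.

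Protein-coding RefSeq records on chromosomes 1 to 22 and X (19974) were given a strand from RefSeq promoter sequences (15813) or by name from GENCODE (3861), and 300 without a strand were left out. CpG content came from GRCh37, 500 bp on either side of the GENCODE gene start, matched by gene name or synonym. This start can differ from the RefSeq record start used for the pairs. Shares carry exact 95% intervals. With 1 library per antibody no p-value was computed. Members and gene lists were chosen with earlier results of these data known. Named pairs were the 12 with the best mean percentile, the 4 differing most in each direction, the 2 closest and 2 farthest pairs, the 3 lowest, those at the thresholds, and up to 4 per gene list. Code (Python 3.11.15, numpy 2.4.6, pandas 2.3.3, scipy 1.17.1) was tested on simulated data. Alternatives changed the window, pair distance, overlap and score cut-off.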

Additional observations from a re-analysis of the deposited data

How the results depend on the processing

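The number of members ran from 192 to 287 over the alternatives. A change of direction was defined only for the ratios. These compared genes in pairs with others, distant with close pairs, and pairs with CCAAT with those without. None of these ratios changed direction. With the higher-scoring 50% of each list, the share of genes in pairs with a shared peak was 19.0% and the median percentiles were 74.7 (PRMT6) and 67.0 (PARP1). With a reciprocal overlap of 50%, that share was 21.7% and 61.7% of the PRMT6 peaks at bidirectional promoters overlapped a PARP1 peak. Without peaks of the smallest width, the share was 20.8% and the median PRMT6 percentile 72.1. With CpG deciles equalised, the ratio of genes in pairs to others was 1.93, and otherwise it lay between 2.40 and 2.74. With PARP1 peaks as members, 59.0% overlapped a PRMT6 peak, and with the PARP1 list cut to the PRMT6 length the median PARP1 percentile was 70.3. The share of centres in the stretch between the starts was 68.3% with a tolerance of 0 bp and 94.7% with 250 bp. Against the median CpG of members stood 0.757 in pairs without a peak and 0.789 at single genes with a shared peak. The ratio of distant to close pairs was 2.38 for any PARP1 peak, and 3.67 to 5.78 otherwise. Fewer peaks, or another set of genes, enter by construction in most of these; for the others the cause was not tested. The alternatives for start distance and CCAAT were chosen after seeing the data.

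No paired analysis was possible because only 1 library was made per antibody, and leaving out a replicate was not run for the same reason. The lists hold no depth, so a missing peak does not show that the protein was absent, and the lists' score thresholds and smallest widths differ. One start per gene was used, and other starts of the same gene were not examined. Of the genes in pairs with a RefSeq promoter, 90.5% had one at the record start.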
